A study of Mus musculus with 4 samples.

Results

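The oligoadenylate synthetase (OAS) genes were examined in whole kidneys of mice with pristane-induced lupus-like disease, with Zbp1 (labelled WT) or without it (labelled ZBP1-KO, here Zbp1-KO). The family members were the rows of Oas1a, Oas1b, Oas1c, Oas1g, Oas2, Oas3, Oasl1 and Oasl2, chosen by symbol, which made 8 of the 54532 genes counted in each of the 4 libraries. All 8 passed the low-count filter and were tested, but Oas3 did so on 12 to 20 counts per library. Beside the members, 3 further genes of the pathway were followed.

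Each genotype had 2 libraries of polyadenylated RNA. All mice were on a C57BL/6J background, were injected with 500 µL pristane into the peritoneal cavity when 8 weeks old, and were killed 8 months later, so that both genotypes carried the same treatment and kidneys without pristane were not analysed here. The knockout removed exons 2 to 8 of Zbp1 by CRISPR-Cas9. Zbp1 is an interferon-induced gene whose product binds DNA and RNA in the Z conformation. The WT mice were described as purchased and the Zbp1 line as generated by a separate supplier, and littermate controls were not mentioned, so genotype and origin cannot be told apart. The labels number the kidneys but do not state that each came from a separate animal, so that p-values measure only the spread between these samples, which may be technical.

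Total counts ranged from 9878776 to 12921925 per library, and mitochondrially encoded genes took 49.5% to 61.5% of them. Zbp1 had 94 and 125 counts in WT against 18 and 0 in Zbp1-KO, in the direction of the labels, although it was not called (log2 fold change −3.64 ± 0.89, SE, edgeR adjusted p = 0.999). The 8 markers of kidney tubule and glomerulus were detected in all 4 libraries, with summed levels of 3346 to 3958 CPM (counts per 1000000, scaled by the TMM method so that most genes match between libraries). The Zbp1-KO replicates were less alike than the WT replicates. Across genes, which do not count as replicates, Pearson r of log2 CPM was 0.900 and 0.938.

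Oligoadenylate synthetases are interferon-induced enzymes that bind double-stranded RNA and then join ATP into short chains with 2′-5′ bonds, called 2-5A. The chains act as a second messenger that leads to the breakdown of RNA and so limits viral replication. Phosphodiesterases degrade 2-5A, and the family is among the genes most often used as a readout of type I interferon in lupus. In the mouse, Oas1 exists in many copies, and the Oasl proteins carry a ubiquitin-like tail in addition to the synthetase fold.

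All family genes lie on chromosome 5 (positions from GENCODE M21, GRCm38). Oas2, Oas3 and the 8 Oas1 copies fill 191.32 kb, from 120730333 to 120921652, with no other protein-coding gene between neighbours. Oasl2 and Oasl1 lie side by side from 114896936 to 114937915, and 60 protein-coding genes separate them from the cluster. Oas1b (120812635 to 120824163, plus strand) and Oas1c (120800194 to 120812514, minus strand) start back to back, with 120 bases between their starts. Oas1b is annotated as a polymorphic pseudogene. Its longest annotated coding sequence has 1128 bases, and a shorter one has 753. C57BL/6 mice are known to carry a premature stop in this gene.

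**Figure D1:**
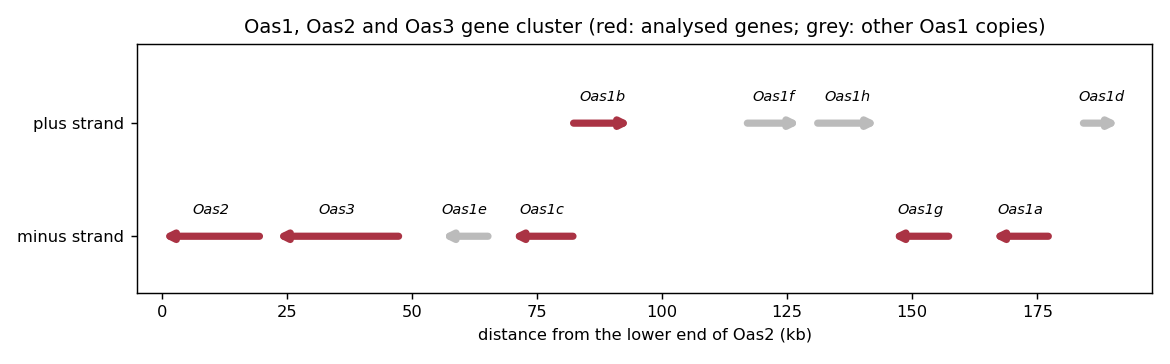
Map of the Oas1, Oas2 and Oas3 cluster, with distance from the lower end of Oas2 in kb on the horizontal axis and the strand on the vertical axis; arrows point in the direction of transcription. The 6 analysed genes of the cluster are red and the other 4 Oas1 copies grey, and Oas1b and Oas1c start 120 bases apart in opposite directions.

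The upstream sequences were inspected because interferon-responsive genes of this family are known to carry an interferon-stimulated response element (ISRE). The 120 bases before the start site are shown for the 6 members found in the RefSeq promoter table (GRCm38.p6), 5′ to 3′ on the strand of the gene. Capitals mark matches to an ISRE-like pattern, a pair of GAAA half-sites separated by any 2 bases, on either strand, where a run longer than 10 bases holds overlapping matches.
Oas1a (chr5:120907526-120907645, minus strand): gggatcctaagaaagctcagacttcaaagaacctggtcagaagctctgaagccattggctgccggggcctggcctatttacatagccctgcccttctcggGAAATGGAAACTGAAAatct
Oas1g (chr5:120887614-120887733, minus strand): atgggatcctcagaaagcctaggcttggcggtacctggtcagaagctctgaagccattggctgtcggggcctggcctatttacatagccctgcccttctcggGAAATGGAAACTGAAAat
Oas1c (chr5:120812515-120812634, minus strand): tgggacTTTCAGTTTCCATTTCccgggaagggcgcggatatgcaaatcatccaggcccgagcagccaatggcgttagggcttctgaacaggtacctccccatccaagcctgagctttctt
Oas3 (chr5:120777660-120777779, minus strand): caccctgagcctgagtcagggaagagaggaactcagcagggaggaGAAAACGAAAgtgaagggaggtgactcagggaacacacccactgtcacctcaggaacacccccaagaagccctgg
Oasl1 (chr5:114923120-114923239, plus strand): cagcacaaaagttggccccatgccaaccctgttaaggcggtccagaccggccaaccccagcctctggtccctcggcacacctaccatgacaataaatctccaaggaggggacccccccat
Oasl2 (chr5:114896814-114896933, plus strand): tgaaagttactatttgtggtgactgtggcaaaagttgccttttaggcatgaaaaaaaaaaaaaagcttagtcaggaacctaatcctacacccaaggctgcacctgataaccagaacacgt

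Windows of 300 bases, from 250 before to 50 after the start, held the pattern in 4 of the 6 members. The share was 3.44% of all 32851 promoter windows in the table and 3.99% of its gene symbols. Oas1a and Oas1g shared the same run of 16 bases directly upstream of the start. In Oas1c the same run was read from the opposite strand, so the matches in these Oas1 copies do not count as separate occurrences. The Oas1c run lay in the 120 bases shared with Oas1b, 98 bases from the Oas1c start and 6 bases before the Oas1b start. The window of Oas3 held 1 match, and those letters were not in the windows of Oasl1, Oasl2, Oas1f, Oas1h, Abce1, Pde12 or Akap7. A match describes the sequence and does not show that a factor binds there. Oas1b and Oas2 were not in the table.

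None of the 8 members passed an adjusted p of 0.05 in edgeR (quasi-likelihood test), where 2 of 14908 genes were called (0.0134% of those tested, both higher in Zbp1-KO, and 0% lower). At an unadjusted p under 0.05, Oas2 was higher and Oasl1 lower in Zbp1-KO, which made 1 of 8 members in each direction. Of all genes tested, 3.88% reached that level, 1.91% higher and 1.97% lower. Both Zbp1-KO libraries lay outside both WT libraries for 5 of the 8 members, 3 above (Oas1b, Oas2 and Oasl2) and 2 below (Oas3 and Oasl1). Over all genes tested the corresponding shares were 32.3% in either direction, 16.0% above and 16.3% below. The median log2 fold change of Zbp1-KO over WT was 0.14 over the members, with 6 of 8 above 0, and −0.01 over all genes tested. Without Zbp1-KO 2 the median over the members was −0.041, with 4 of 8 above 0, so its direction rested on that library.

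Oas2 had the highest count in the family. It encodes a synthetase with a pair of catalytic-type units. It was also among the genes that the study followed by quantitative PCR. Oas2 (ENSMUSG00000032690, 120730333 to 120749853, minus strand) had 393 and 417 counts in WT against 741 and 468 in Zbp1-KO. Its levels were 31.6 and 35.7 CPM in WT against 54.6 and 50.4 in Zbp1-KO. The groups did not overlap, and the replicates were closer to each other than to the other genotype. The mean was 33.6 ± 2.87 CPM for WT and 52.5 ± 2.99 CPM for Zbp1-KO (SD over 2 libraries), 1.56-fold higher. The log2 fold change was 0.64 ± 0.20 (SE, edgeR unadjusted p = 0.00784, adjusted p = 0.999).

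Oasl1 was lower in both Zbp1-KO libraries, opposite to Oas2. It encodes a family member without synthetase activity, known to repress translation of the Irf7 mRNA and so to dampen type I interferon. Oasl1 (ENSMUSG00000041827, 114923240 to 114937915, plus strand) had 81 and 66 counts in WT against 28 and 23 in Zbp1-KO. The levels were 6.51 and 5.64 CPM in WT against 2.07 and 2.48 in Zbp1-KO, with no overlap. The means were 6.08 ± 0.615 CPM and 2.27 ± 0.292 CPM (SD, n = 2 each). The log2 fold change was −1.42 ± 0.57 (SE, edgeR unadjusted p = 0.0288, adjusted p = 0.999). It had the largest absolute fold change of the family. Irf7 itself measured 66.7 and 69.1 CPM in WT against 69.0 and 62.4 in Zbp1-KO, and the groups overlapped (log2 fold change −0.05 ± 0.19, SE).

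Oasl2, the neighbour of Oasl1, did not share its direction. Its protein retains synthetase activity in the mouse. Oasl2 (ENSMUSG00000029561, 114896936 to 114912234, plus strand) measured 29.4 and 31.4 CPM in WT against 50.4 and 31.7 in Zbp1-KO. The lower Zbp1-KO value was within 1 CPM of the higher WT value, so the difference rested on the library Zbp1-KO 1. The log2 fold change was 0.44 ± 0.25 (SE, edgeR adjusted p = 0.999), and 0.060 without Zbp1-KO 1.

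The pair was then compared within libraries, where a ratio does not move with scaling. The log2 ratio of Oasl1 to Oasl2 counts was −2.17 and −2.47 in WT and −4.59 and −3.65 in Zbp1-KO. Both Zbp1-KO libraries lay below both WT libraries, with a difference of −1.80. The log2 ratio of Oas2 to Oas3 counts was 4.26 and 4.35 in WT and 5.89 and 5.12 in Zbp1-KO, again without overlap. In both cases the exact two-sided permutation test gave p = 0.33, the smallest value that 2 against 2 libraries allow. For Oas2 over Oasl2 the groups overlapped, with 0.11 and 0.18 in WT and 0.12 and 0.67 in Zbp1-KO (exact permutation p = 0.667). The separation of the first 2 of the 4 ratios compared follows from the levels of the single genes and is no further support. Adjustment over the 4 ratios cannot bring any p below 0.33.

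**Figure D2:**
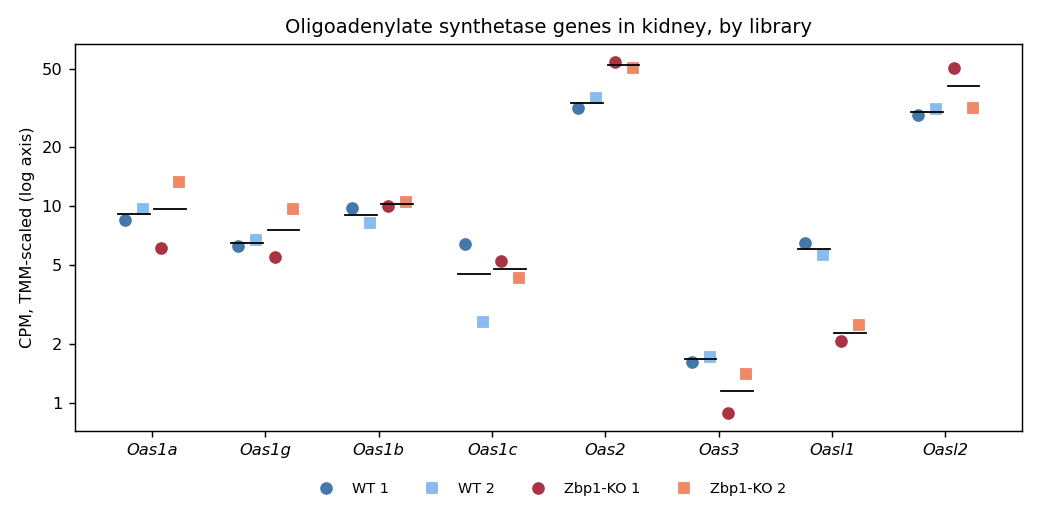
Level of each family gene in the 4 libraries, in TMM-scaled CPM on a log axis; blue points are WT and red or orange points Zbp1-KO, circles are replicate 1 and squares replicate 2, and black bars are the means of 2 libraries. Oas2 is higher and Oasl1 lower in both Zbp1-KO libraries, whereas the points of Oas1a, Oas1g and Oas1c mix.

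The Oas1 copies showed no separation as a group. Oas1a and Oas1g, both active synthetases, had coding sequences that were 96.7% identical, against 79.6% for Oas1a and Oas1b and 75.5% for Oas1a and Oas1c. Of all stretches of 100 bases in the annotated transcripts, 40.9% of those of Oas1a and 31.2% of those of Oas1g occurred in the other gene. Only uniquely mapped read pairs had been counted, so the counts of these genes are uncertain, both in level and in how reads were split between them. For Oas2, Oas3, Oasl1, Oasl2 and Oas1b the shared part was 0% at this length, and for Oas1c it was 4.23%, all of it in the antisense gene Gm43069.

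Oas1a (ENSMUSG00000052776, 120896256 to 120907521, minus strand) measured 8.52 and 9.66 CPM in WT against 6.12 and 13.2 in Zbp1-KO. The Zbp1-KO libraries took the lowest and the highest value, 1.11 apart on the log2 scale. Oas1g (ENSMUSG00000066861, 120876142 to 120887613, minus strand) showed the same order, with 6.27 and 6.76 CPM in WT against 5.53 and 9.69 in Zbp1-KO. The log2 ratio of Oas1a to Oas1g counts stayed between 0.15 and 0.51 in the 4 libraries (exact permutation p = 0.667). The log2 fold changes were 0.08 ± 0.41 and 0.22 ± 0.44 (SE), and both turned negative without Zbp1-KO 2, at −0.57 and −0.24.

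Oas1b (ENSMUSG00000029605) was the steadiest member, with 9.81 and 8.21 CPM in WT against 10.03 and 10.6 in Zbp1-KO. The groups did not overlap, but the gap between them was smaller than that between the WT replicates, and the log2 fold change was 0.19 ± 0.34 (SE). In mouse strains with an intact reading frame this gene is known for resistance to flaviviruses. Oas1c (ENSMUSG00000001166), which starts from the same short interval, measured 6.43 and 2.57 CPM in WT against 5.24 and 4.31 in Zbp1-KO, and its WT replicates enclosed both Zbp1-KO values. It overlaps Gm43069 on the opposite strand over 9.44% of its exon length. The methods describe a strand-specific preparation, but whether counting used the strand is not given in the sources used here.

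Of the other 4 Oas1 copies, Oas1d and Oas1e had 0 counts in every library, which allows up to 3 counts, or 0.221 to 0.323 CPM. Oas1f had 7 and 0 counts in WT against 12 and 0 in Zbp1-KO, and Oas1h had 6 and 0 counts in WT and 0 in both Zbp1-KO libraries. None was tested. Summed over all 8 copies, the level was 32.1 and 27.2 CPM in WT against 27.8 and 37.8 in Zbp1-KO, with overlap. With the copies replaced by their sum in the edgeR fit, the log2 fold change was 0.14 ± 0.23 (SE, adjusted p = 0.999), and it was −0.093 without Zbp1-KO 2.

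Oas3 (ENSMUSG00000032661, 120753098 to 120777661, minus strand), which encodes the longest protein of the family and prefers long double-stranded RNA, was the least abundant. It had 20 counts in each WT library and 12 and 13 counts in Zbp1-KO, or 1.61 and 1.71 against 0.885 and 1.40 CPM. The groups did not overlap. The log2 fold change was −0.54 ± 1.06 (SE, edgeR adjusted p = 0.999), with an error larger than the estimate at 12 to 20 counts per library. Which differences could be detected at such counts was not tested.

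**Figure D3:**
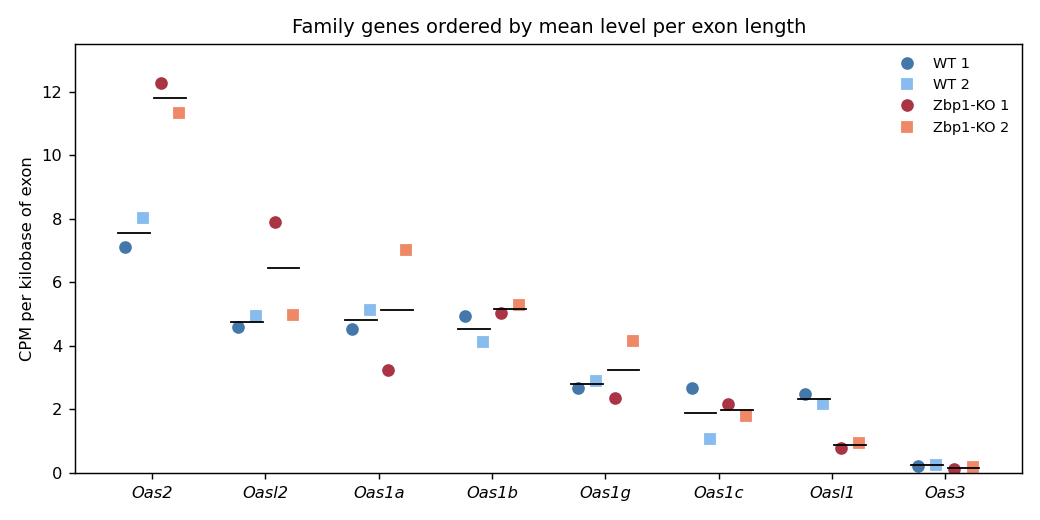
Family genes ordered by mean level over the 4 libraries, in CPM per kilobase of annotated exon; symbols are as in the plot of CPM by library and black bars are means of 2 libraries. By the length of the exon union, Oas2 leads in every library and Oas3 is last in every library, below 0.25 CPM per kilobase. The place of Oasl2 depends on the length used.

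Per kilobase of exon, the order of mean levels over the 4 libraries was Oas2 (9.68 ± 2.51), Oasl2 (5.60 ± 1.55), Oas1a (4.98 ± 1.57), Oas1b (4.85 ± 0.507), Oas1g (3.02 ± 0.780), Oas1c (1.93 ± 0.678), Oasl1 (1.60 ± 0.856) and Oas3 (0.198 ± 0.0520), in CPM per kilobase (SD, n = 4). The place of Oasl2 in this order depends on the length used. Its exon union has 6374 bases, against 3123 for its transcript with the longest coding sequence. For Oas2 these lengths were 4451 and 3961 bases. The order by transcript length was not examined, and the statements below hold for the exon union only. Oas2 was above Oasl2 within each of the 4 libraries, although their ranges overlapped between libraries. Oasl2, Oas1a and Oas1b did not differ beyond their spread and changed places between libraries. Oas1g was below Oas1b in every library. Oas1c and Oasl1 also overlapped, and Oasl1 was above Oas1c only in WT 2. Oasl1 and Oas3 were the only neighbours whose ranges did not overlap.

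Taken as a sum, the 8 members reached 100 and 102 CPM in WT against 135 and 124 in Zbp1-KO. Both Zbp1-KO libraries were higher, with means of 129 ± 7.90 against 101 ± 1.05 CPM (SD, n = 2 each; exact permutation p = 0.33, the smallest possible). Oas2 and Oasl2 made up most of this sum. Oas2 took 31.6% of the family's counts in WT 1 (95% Wilson interval 29.0% to 34.2%) and 35.1% in WT 2 (32.4% to 37.9%). In Zbp1-KO 1 and 2 it took 40.5% (38.3% to 42.8%) and 40.7% (37.9% to 43.6%). The share of Oasl1 was 6.51% and 5.56% in WT and 1.53% and 2.00% in Zbp1-KO. The intervals cover counting error only.

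Markers of other cell types differed between the same libraries. T cell markers, 8 of 8 detected in every library, summed to 14.6 and 9.07 CPM in WT against 23.96 and 19.5 in Zbp1-KO. Of the 7 tested, 2 lay above WT in both Zbp1-KO libraries and 0 below, against 16.0% and 16.3% of all genes tested. Their median log2 fold change was 0.89, and it was 0.23 without WT 2. Fat markers, with Lep at 0 in every library and 5 of 7 detected in every library, summed to 80.3 and 110 CPM in WT against 230 and 190 in Zbp1-KO. All 6 tested lay above WT in both Zbp1-KO libraries and 0 below, against the same shares of all genes. Their median log2 fold change was 2.17. The fat marker Cfd was 1 of the 2 genes called of all those tested (log2 fold change 2.20, edgeR adjusted p = 0.00889). The 7 immediate-early genes were lower in Zbp1-KO, with sums of 347 and 110 CPM in WT against 76.1 and 71.6 in Zbp1-KO. The 3 markers of plasmacytoid dendritic cells, a main source of type I interferon, summed to 3.78 and 4.19 CPM in WT against 5.53 and 9.69 in Zbp1-KO. Of these, 2 of 3 (Siglech and Ly6d) were detected in every library, and they did not move together. Siglech overlapped, with 18 and 19 counts in WT against 8 and 23 in Zbp1-KO. Ly6d had 29 and 30 counts in WT against 67 and 63 in Zbp1-KO, and Ccr9 had 4 counts, all in Zbp1-KO 2. The 5 markers of B and plasma cells overlapped, at 121 and 29.3 CPM in WT against 43.6 and 56.0 in Zbp1-KO, with Ms4a1 and Cd79a at 0 in both Zbp1-KO libraries. The part of these values in the results for Oas2, Oasl1 or the family sum was not tested. Macrophage markers, 7 of 7 detected in every library, overlapped between genotypes in their sum (184 to 272 CPM in WT and 252 to 263 CPM in Zbp1-KO). Taken singly, 3 of the 7 lay above WT in both Zbp1-KO libraries and 0 below, against 16.0% and 16.3% of all genes tested. Of 5 neutrophil markers, 3 (S100a8, S100a9 and Csf3r) were detected in every library and Ly6g in none, and the sums of 25.1 and 5.13 CPM for WT enclosed those of 8.996 and 12.6 CPM for Zbp1-KO. In whole kidney, fewer cells of a type and less RNA per cell cannot be told apart.

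Genes known to restrain the pathway were examined next. Abce1, an ATPase that restrains signalling by 2-5A and is needed for ribosome recycling, measured 42.1 and 51.4 CPM in WT against 49.7 and 36.6 in Zbp1-KO, with overlap. Pde12, a phosphodiesterase that degrades 2-5A, measured 7.56 and 7.10 CPM in WT against 4.65 and 4.85 in Zbp1-KO, without overlap. Its log2 fold change was −0.63 ± 0.45 (SE, edgeR adjusted p = 0.999), and its exons overlap those of Arf4 on the opposite strand over 6.82% of their length. Akap7, which contains a domain able to cleave 2′-5′ bonds, measured 6.03 and 9.66 CPM in WT against 7.08 and 13.9 in Zbp1-KO. Of these 3 genes, 0 were called by edgeR in either direction and 0 had an unadjusted p under 0.05. Of the 3, 1 had both Zbp1-KO values on one side of WT, a share near the 32.3% of all genes tested.

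**Figure D4:**
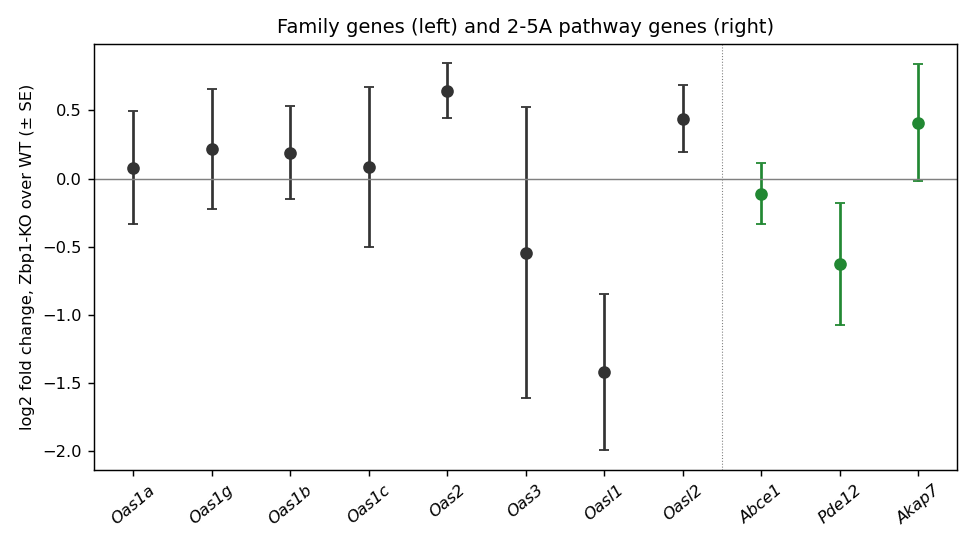
Log2 fold change of Zbp1-KO over WT with its standard error (vertical bars) from the edgeR fit, for the 8 family genes (black) and 3 genes of the 2-5A pathway (green). Oas2 (0.64 ± 0.20) and Oasl1 (−1.42 ± 0.57) lie farthest from 0 relative to their errors, in opposite directions, and none of the 11 genes was called.

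Other genes of double-stranded RNA sensing, receptors together with Mavs, Trim25 and Adar, were listed for comparison. Of 8 tested, 0 were called by edgeR and 0 had an unadjusted p under 0.05. Both Zbp1-KO values lay above WT for 4 and below for 0, against 16.0% and 16.3% of all genes tested. The median log2 fold change was 0.18, and it was 0.37 without Zbp1-KO 2. Ifih1, which encodes the sensor MDA5, measured 8.12 and 6.50 CPM in WT against 11.7 and 11.3 in Zbp1-KO. Tlr3, the endosomal receptor of double-stranded RNA, measured 6.84 and 9.24 CPM in WT against 15.1 and 10.1 in Zbp1-KO. Mavs, the adaptor of MDA5 and RIG-I, measured 26.5 and 24.1 CPM in WT against 44.7 and 27.4 in Zbp1-KO. The log2 fold changes were 0.65 ± 0.35, 0.66 ± 0.36 and 0.51 ± 0.26 (SE), respectively.

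The interferon receptor, JAK-STAT and IRF genes lie upstream of OAS induction. Of 17 tested, 0 were called by edgeR. In both Zbp1-KO libraries 3 lay above and 1 below WT, against 16.0% and 16.3% of all genes tested. The median log2 fold change was −0.03. With 1 library left out, that median ran from −0.05 without Zbp1-KO 1 to 0.14 without WT 2, so its sign turned with single libraries. Usp18, an interferon-induced brake on the receptor, measured 5.47 and 6.93 CPM in WT against 17.3 and 8.08 in Zbp1-KO (log2 fold change 1.04 ± 0.42, SE). Irf1, an activator of interferon-responsive promoters, measured 19.7 and 30.0 CPM in WT against 51.9 and 35.7 in Zbp1-KO (0.82 ± 0.27, SE). Both had an edgeR unadjusted p under 0.05, at 0.0289 and 0.00977, and 1.91% of all genes tested were higher at that level. Irf9, the DNA-binding part of the complex that recognises ISREs, measured 31.7 and 30.8 CPM in WT against 42.8 and 35.5 in Zbp1-KO (0.33 ± 0.21, SE).

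Among other interferon-induced genes, the 5 ISG15 conjugation genes had a median log2 fold change of 0.27, which was 0.08 without Zbp1-KO 1, 0.16 without WT 1 and 0.17 without Zbp1-KO 2. The 7 Ifit and Ifitm genes had a median of 0.06, whose sign turned with single libraries. It was −0.10 without WT 1, −0.40 without Zbp1-KO 1, 0.23 without WT 2 and 0.47 without Zbp1-KO 2. Isg15, a ubiquitin-like modifier that the study also followed by quantitative PCR, was lower in both Zbp1-KO libraries (−0.52 ± 0.32, SE), as were Ifitm1 (−0.31 ± 0.31, SE) and Ifitm2 (−0.26 ± 0.21, SE), which encode membrane proteins that block viral entry. Ifit1, a sensor of viral RNA ends, was higher in both (0.41 ± 0.24, SE). The 18 interferon-induced GTPases had a median of 0.88, with 18 of 18 above 0 and 0 called by edgeR. At an edgeR unadjusted p under 0.05, 9 were higher, against 1.91% of all genes tested. Both Zbp1-KO values lay above both WT values for 6 and below for 0, against 16.0% and 16.3% of all genes tested. Mx2 (1.94 ± 0.64, SE), Gbp5 (1.34 ± 0.39, SE) and Gbp6 (1.10 ± 0.57, SE) had the largest differences among those without overlap between genotypes. The median of this list was 0.20 without Zbp1-KO 1, with 13 of 18 above 0, 0.46 without WT 1, 1.43 without Zbp1-KO 2 and 1.7 without WT 2.

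Each list was also averaged per library as log2 CPM centred per gene. The OAS family stood at 0.09 and −0.05 in WT and −0.12 and 0.09 in Zbp1-KO, an average in which the opposite differences of Oas2 and Oasl1 offset each other. The GTPases stood at −1.03 and 0.10 in WT and 1.04 and −0.11 in Zbp1-KO. The difference between the lists was not tested.

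**Figure D5:**
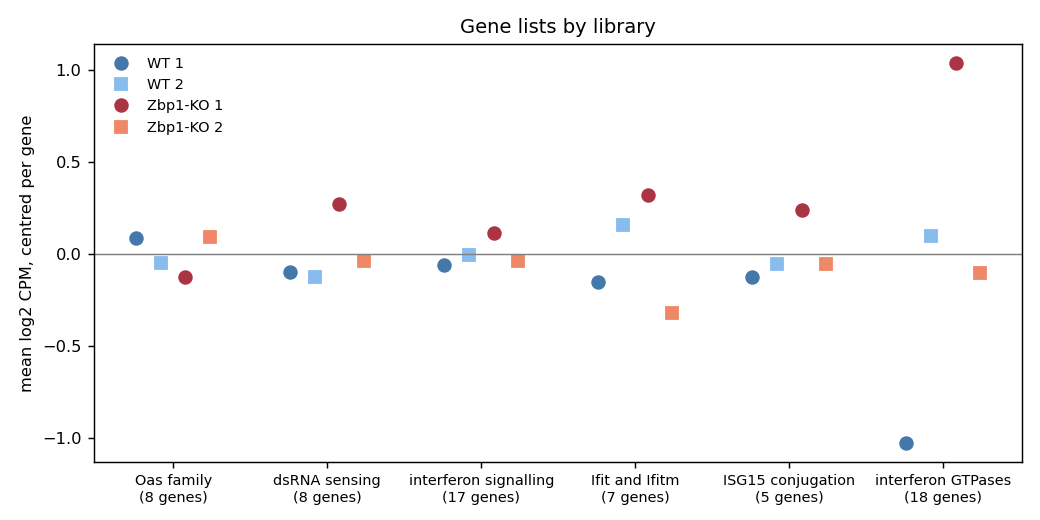
Mean log2 CPM, centred on each gene's mean over the 4 libraries, for the OAS family and 5 further interferon-related lists; symbols are as in the plot of CPM by library. The OAS family stays within 0.13 of 0 in every library, whereas the interferon-induced GTPases run from −1.03 in WT 1 to 1.04 in Zbp1-KO 1.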

How the data were processed

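Whole-kidney RNA in 2 WT and 2 Zbp1-KO libraries was analysed, grouped by the sample titles. The authors enriched polyadenylated RNA, trimmed reads with Trimmomatic, aligned them with HISAT2 (mm10 per the submitters' processing notes) and counted uniquely mapped pairs with featureCounts. The deposited values are raw counts per Ensembl gene. Versions, annotation release and strand setting are not given in the sources used here. GENCODE M21 (GRCm38) named 54495 of 54532 gene IDs.

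Counts were filtered with filterByExpr (minimum count 10, total 15), TMM-scaled and tested in edgeR 4.0.16 (R 4.3.3) by the two-sided quasi-likelihood test with genotype as the only term, adjusted by Benjamini-Hochberg over 14908 genes. Fold changes are Zbp1-KO over WT with a prior count of 0.125. Ratios of counts used a pseudocount of 0.5 and exact permutation tests in SciPy 1.17.1. Levels per kilobase used the exon union of GENCODE M21. The fit was tested on simulated data. Coding sequences were aligned with Biopython 1.88. Total counts of 9878776 to 12921925 per library, less their mitochondrial share, set the precision. DESeq2 1.42.0 and limma-voom (limma 3.58.1) were alternatives, besides other scalings, filters and left-out libraries.

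Named genes were all members, the Oas1 copies, the 2-5A pathway (1 gene is not reported here), Zbp1, up to 3 genes per interferon list without overlap between genotypes, and the 5 genes nearest in profile. Irf7 was added after its values were seen. Members and lists were chosen with earlier results of these data known.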

Additional observations from a re-analysis of the deposited data

How the results depend on the processing

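Calls among the 8 members stayed at 0 higher and 0 lower under every alternative run. For Oas1b, Oas2, Oas3, Oasl1 and Oasl2, both Zbp1-KO libraries lay on one side of both WT libraries. Leaving out a library could therefore hardly turn their sign, and the other settings reused the same 4 libraries. That these members kept their sign in all 15 alternatives is thus no further support. Over those, the log2 fold change ran from 0.56 to 0.73 for Oas2 (adjusted p 0.442 to 1.00 in edgeR, DESeq2 or limma-voom) and from −1.55 to −1.29 for Oasl1 (0.519 to 1.00). Oas1a became −0.11 with limma-voom and −0.0051 with the replicate block, uncalled in each case. The number of all genes called was 2, and 41 with all genes of at least 1 count, 14 with the exact test, 26 with the likelihood ratio test, 9 with DESeq2, 7 with limma-voom, 11 with the replicate block, 4 without mitochondrial genes and 0 to 15 with 1 library left out. On the pathway and interferon lists 0 genes were called, and 4 (Gbp2, Gbp4, Igtp and Iigp1) with all genes of at least 1 count, a setting that let in 22065 genes. Otherwise the cause was not tested.

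With each library left out in turn, where the lone sample of a genotype is assumed to vary like the others, the members' median ran from −0.041 to 0.24 (0.14 with all), the summed Oas1 copies from −0.093 to 0.35, Oas1a from −0.57 to 0.54, Oas1g from −0.24 to 0.57, Oas1c from −0.43 to 0.89, Abce1 from −0.35 to 0.089, Akap7 from −0.15 to 0.82 and the log2 ratio of Oas2 to Oasl2 from −0.030 to 0.52. The median was below 0 without Zbp1-KO 2.

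Libraries with the same number did not deviate together (r = 0.0040 over genes), and the numbers were not taken as pairs, and the replicate block changed no call among the members. No scaling shifted the all-gene median by as much as 0.1.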

Other observations

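Genes whose profile over the 4 libraries lay nearest to the mean profile of the 8 members were sought among 8205 tested genes with a mean of at least 10 CPM. The 5 nearest were Akap8l, Prdx2, Ppid, Zc3h18 and Prr12, none of them on the interferon lists, with a root mean square difference of 0.011 to 0.021 in centred log2 CPM. The members themselves lay farther from their own mean profile, from 0.13 for Oas1b to 0.66 for Oasl1, and 8110 of the 8205 genes were nearer to it than Oasl1. With 4 libraries many genes match a nearly flat profile, so the likeness is a description only.

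Between replicates, the median absolute log2 difference over the 8 members was 0.18 in WT and 0.47 in Zbp1-KO, and 0.32 and 0.40 over all genes tested. Oas2 had one of the smaller gaps in Zbp1-KO (0.12), and Oas1a the largest of the members (1.11).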
